A study of Homo sapiens with 8 samples.

Results

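The genes described here are the numbered zinc-finger (ZNF) genes that lie outside chromosome 19, which holds large clusters of ZNF genes. They were taken by name: every gene of the deposited H3K9ac peak annotation whose symbol is ZNF followed by a number, with its peak on any other chromosome. This gave 213 genes of the 12186 named in the H3K9ac lists. The ZNF genes on chromosome 19, 193 in number, and the remaining 11780 genes served for comparison. Acetylation of histone H3 at lysine 9 (H3K9ac) and lysine 27 (H3K27ac) was mapped by ChIP-seq in spheroids of MIA PaCa-2, a widely used human cell line from a pancreatic carcinoma, grown in a hyaluronan hydrogel. The design asks how stromal culture changes the acetylation marks of the cancer cells.

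In the stromal group the gel carried Gelin-S, a collagen-derived component, and the cells received medium with 2% serum that immortalized myofibroblasts from resected human pancreatic tumours had conditioned for 48 hours. In the astromal group the gel held water in place of Gelin-S, and the cells received plain DMEM with the same 2% serum. Both groups shared the hyaluronan (Glycosil) and the crosslinker, and gel component and conditioned medium changed together, so their effects cannot be told apart. The myofibroblasts supplied medium only. The labels give 1 library per mark and group, so no difference has a replicate check and no p-value is given.

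Zinc-finger proteins of the C2H2 type read DNA through arrays of fingers, and many of them carry a KRAB domain. A KRAB domain binds the corepressor TRIM28, which brings in SETDB1 and other silencing factors, and much of this family holds transposable elements silent. The genes themselves arose largely by duplication in tandem, and H3K9ac and H3K27ac are marks of active promoters and, more so for H3K27ac, of active enhancers.

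Depth was 7569604 tags in the stromal and 3925277 in the astromal H3K9ac library, both estimated from the step of the deposited values, against 17190695 and 13453902 tags for stromal and astromal H3K27ac. A level below is the sum of the authors' normalised tags, scaled to 10000000 tags per library, over the peaks of a gene. The lowest peak of the lists held 8 tags in the stromal and 5 in the astromal H3K9ac list, and 9 and 8 tags in the stromal and astromal H3K27ac lists. A gene missing from a list may therefore carry the mark below that list's threshold. Of 9 epithelial and ductal markers, 5 were named in the H3K9ac lists (KRT8, KRT18, KRT19, SOX9 and MUC1), 2 of them in both lists, 2 in just the stromal and 1 in just the astromal list. KRT7, EPCAM and CDH1 were among those not named. Of 4 mesenchymal markers VIM alone was named, in the stromal list only, at 92.5 normalised tags, and ZEB1, CDH2 and FN1 were in no list. Of 10 fibroblast markers 4 were named, all in the stromal list only, at 17.2 to 111.0 normalised tags, and COL3A1, PDGFRB, FAP, DCN, LUM and POSTN were in no list. None of the 4 haematopoietic and 2 endothelial markers was named. Of all genes named, 52.2% stood in the stromal H3K9ac list only, 46.8% in both lists and 0.935% in the astromal list only. What part the marker genes have in the results below was not tested.

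Most of the ZNF genes outside chromosome 19 that an H3K9ac list named had H3K9ac peaks in both cultures. The mark stood in both lists at 127 of 213 genes, or 59.6% (95% exact interval 52.7 to 66.3, counting error only). The same share was 53.9% of chromosome 19 ZNF genes and 46.5% of the other genes. A further 84 members (39.4%) had H3K9ac in the stromal list only, where 52.2% of all genes named stood, and 2 members had it in the astromal list only, against a background of 0.935%. The stromal library was the deeper one and its list the longer one, with 20326 peaks against 7141 astromal peaks, and the part of this in the stromal-only count was not tested. With only peaks of at least 25 normalised tags kept in both lists, 60 of 176 members, or 34.1%, stood in both, against 30.0% of all genes.

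H3K27ac near these genes was more even between the cultures. It lay within 2 kb of an H3K9ac peak of the gene in both lists at 158 of 213 members (74.2%, 67.8 to 79.9), against 65.1% of the other genes. Just the stromal list held it at 5 members, with a background of 5.21%, and just the astromal list at 14 members, with a background of 7.66%. The remaining 36 members (16.9%, 12.1 to 22.6) had no H3K27ac peak of either list, against 21.9% of the other genes. Where only overlapping peaks were counted, 13 members (6.1%, against 8.05% of all genes) had H3K27ac in just the stromal list and 32 (15.0%, against 12.4%) in just the astromal one.

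**Figure D1:**
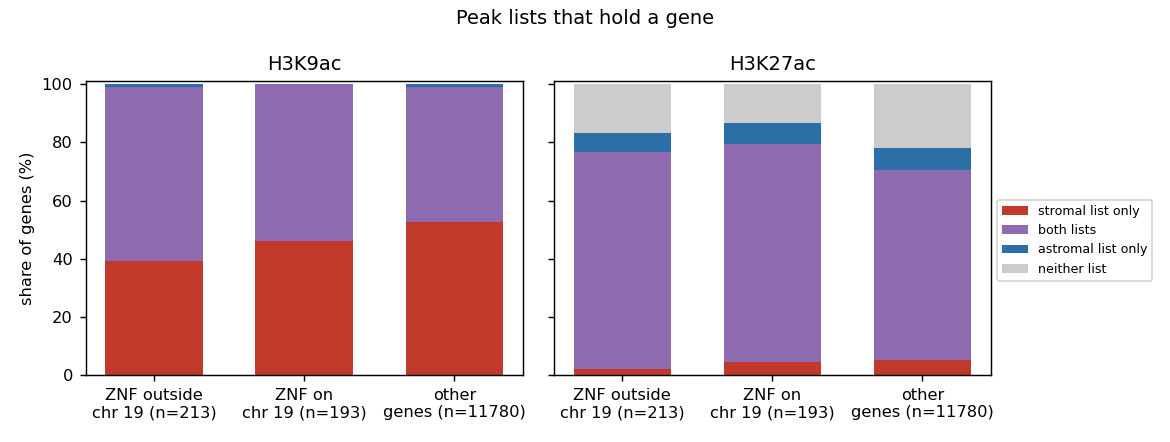
Bars give the share of genes, in percent, by the peak list that holds them, for H3K9ac on the left and H3K27ac on the right. All genes counted were named in an H3K9ac list. H3K9ac stood in both lists at 59.6% of ZNF genes outside chromosome 19, 53.9% of those on it and 46.5% of other genes, and H3K27ac at 74.2%, 74.6% and 65.1%.

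The marks went together at most members. Of the members with stromal H3K9ac, 161 of 211 (76.3%, 70.0 to 81.9) had stromal H3K27ac within 2 kb, with 70.6% for all genes. Of those with astromal H3K9ac, 120 of 129 (93.0%, 87.2 to 96.8) had astromal H3K27ac, with 90.3% for all genes. Peaks in all 4 lists were found at 112 of the 213 members, and at 4845 of all 12186 genes. Another 44 members had H3K9ac in the stromal list only beside H3K27ac in both lists, and 30 had H3K9ac in the stromal list only and no H3K27ac. Of members with stromal-only H3K9ac, 64.3% had H3K27ac of either list, against 64.2% for all genes. Members with H3K9ac in both lists had the higher stromal level, with a median of 60.8 normalised tags, against 31.7 for members in the stromal list only. Over all genes these medians were 55.5 and 30.4. Members with no H3K27ac had a median stromal H3K9ac of 21.8 normalised tags, against 51.5 for members with H3K27ac of either list. The same medians over all genes were 23.8 and 46.3.

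Most peaks of these genes sat at the start of the gene. In the stromal H3K9ac list 296 of 373 member peaks (79.4%) had their centre within 1 kb of the transcription start site (TSS), and in the astromal list 135 of 164 (82.3%). The same shares over other genes were 76.2% stromal and 86.2% astromal. Within 1 kb, 62.8% of stromal and 68.1% of astromal H3K9ac member peaks lay downstream of the TSS, against 64.7% and 68.3% over all genes. Member H3K27ac lay more evenly around the TSS, with 53.4% of stromal and 54.4% of astromal peaks downstream. Peaks farther than 10 kb made up 15.5% of stromal and 12.2% of astromal H3K9ac member peaks, against 14.1% and 7.07% of the stromal and astromal peaks of other genes. Only 9 members had no H3K9ac peak within 1 kb of a TSS, among them ZNF217, ZNF311 and ZNF516.

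**Figure D2:**
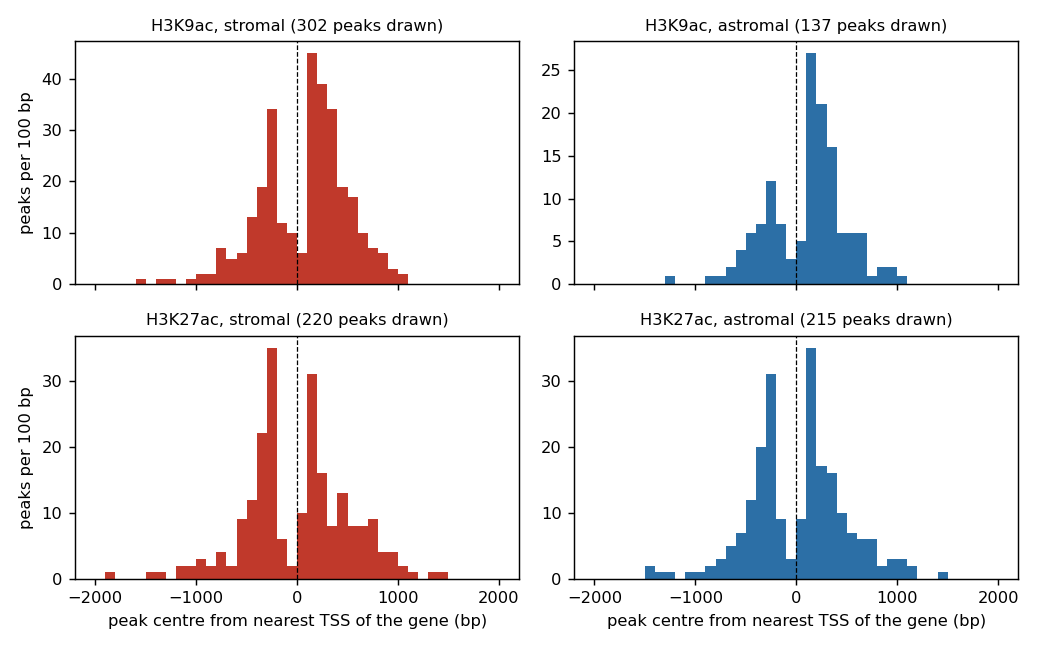
Histograms count member peaks per 100 bp by the distance of the peak centre from the TSS, in bp, with H3K9ac above, H3K27ac below, stromal on the left and astromal on the right. H3K9ac peaks gather downstream of the TSS (62.8% of stromal and 68.1% of astromal peaks within 1 kb, all genes 64.7% and 68.3%). Both marks dip at the TSS itself.

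The promoters of these genes often held the core of an ETS-factor site. RefSeq promoters (build GRCh38.p14, 250 bases before to 50 after the start) could be matched for 174 of the 213 members and gave 243 sequences. CCGGAA, the core that ETS factors such as GABPA bind, was found on either strand in 99 of them (40.7%), against 27.8% of the promoters of all genes in the lists and 17.2% of all promoters of the table. The share was 48.8% among chromosome 19 ZNF genes. It was 43.7% for members with stromal-only H3K9ac and 39.4% for members in both lists, and 45.2% for members with no H3K27ac and 40.1% for those with it. ACTACAA, part of a longer element that ZNF143 binds, was in 6.58% of member promoters, against 3.43% for all listed genes and 2.77% of all promoters. GGGCGG, the GC box, was in 58.8%, against 66.9% and 45.0%, CCAAT in 37.4%, against 34.6% and 34.6%, and TATAAA in 4.12%, against 5.94% and 11.5%. Other motifs searched were CACGTG (5.76%, against 9.62% and 7.26%), TGACGTCA (3.29%, against 2.87% and 1.85%) and AANATGGCG (5.76%, against 6.31% and 3.19%). Both strands were searched for each, no match is a shown binding site, and motifs can overlap where they share letters, as CCGGAA does with its own reverse complement TTCCGG.

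Of 267 protein-coding RefSeq genes with a numbered ZNF symbol outside chromosome 19, 198 (74.2%) were named in an H3K9ac list. The promoters of the members held a median of 24 CpG in their 300 bases, against 25 in those of all genes in the lists and 16 in those of the 69 that were in no list, and CCGGAA was in 25.4% of the promoters of those unlisted genes. Promoters of 6 members are shown to set that sequence beside the acetylation pattern, with CCGGAA or TTCCGG in capitals. ZNF680, at chr7:64563022-64563321 (minus strand), ZNF184, at chr6:27473056-27473355 (minus strand), ZNF70, at chr22:23751063-23751362 (minus strand), and ZNF23, at chr16:71462198-71462497 (minus strand), hold it, and ZNF786, at chr7:149090669-149090968 (minus strand), and ZNF2, at chr2:95165559-95165858 (plus strand), do not.
ZNF680: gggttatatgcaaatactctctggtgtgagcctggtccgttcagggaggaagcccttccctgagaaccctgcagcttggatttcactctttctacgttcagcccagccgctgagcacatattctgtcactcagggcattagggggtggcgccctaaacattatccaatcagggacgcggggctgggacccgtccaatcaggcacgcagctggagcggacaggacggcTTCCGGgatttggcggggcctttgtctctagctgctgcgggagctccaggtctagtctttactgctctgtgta
ZNF184: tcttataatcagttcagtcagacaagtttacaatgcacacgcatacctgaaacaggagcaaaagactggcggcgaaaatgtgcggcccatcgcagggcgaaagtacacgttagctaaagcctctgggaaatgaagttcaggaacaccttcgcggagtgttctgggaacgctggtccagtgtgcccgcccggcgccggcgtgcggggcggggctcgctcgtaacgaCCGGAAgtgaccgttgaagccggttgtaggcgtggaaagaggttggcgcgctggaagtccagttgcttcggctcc
ZNF70: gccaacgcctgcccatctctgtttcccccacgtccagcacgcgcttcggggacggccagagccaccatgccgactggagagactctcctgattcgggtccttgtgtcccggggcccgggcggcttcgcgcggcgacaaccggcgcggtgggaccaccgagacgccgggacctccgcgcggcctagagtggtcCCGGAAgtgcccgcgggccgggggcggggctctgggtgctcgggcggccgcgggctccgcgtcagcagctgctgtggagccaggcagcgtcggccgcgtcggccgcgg
ZNF23: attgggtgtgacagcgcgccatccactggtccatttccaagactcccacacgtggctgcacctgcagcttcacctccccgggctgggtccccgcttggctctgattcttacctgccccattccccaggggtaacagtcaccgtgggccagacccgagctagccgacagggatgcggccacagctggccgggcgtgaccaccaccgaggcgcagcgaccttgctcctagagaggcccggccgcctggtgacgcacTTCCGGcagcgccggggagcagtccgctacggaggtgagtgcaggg
ZNF786: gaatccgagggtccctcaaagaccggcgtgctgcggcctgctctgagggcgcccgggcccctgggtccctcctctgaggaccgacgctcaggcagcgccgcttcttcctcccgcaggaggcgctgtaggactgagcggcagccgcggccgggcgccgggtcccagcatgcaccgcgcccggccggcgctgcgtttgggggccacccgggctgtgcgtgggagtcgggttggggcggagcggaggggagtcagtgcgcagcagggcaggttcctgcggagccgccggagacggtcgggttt
ZNF2: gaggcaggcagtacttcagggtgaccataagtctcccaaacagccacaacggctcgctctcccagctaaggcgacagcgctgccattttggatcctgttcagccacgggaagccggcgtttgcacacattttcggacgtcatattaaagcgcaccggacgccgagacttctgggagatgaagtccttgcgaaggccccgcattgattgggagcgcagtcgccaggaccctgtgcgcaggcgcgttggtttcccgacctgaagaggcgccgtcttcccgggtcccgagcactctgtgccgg
ZNF680 and ZNF70 had H3K9ac in the stromal list only, ZNF23 had H3K9ac in both lists with no H3K27ac, and ZNF184, ZNF786 and ZNF2 had both marks in both lists.

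The highest H3K9ac levels were spread over several peaks, some far from the gene. ZNF184, a KRAB zinc-finger gene on chromosome 6, summed to 268.2 normalised tags over 8 stromal peaks, against 79.0 over 3 astromal peaks, and its H3K27ac to 179.9 stromal and 164.98 astromal, over 10 peaks each. Its strongest stromal peak (59.4 normalised tags) was intergenic at chr6:27447000-27447210 in hg19, 6208 bp upstream of the TSS, and others reached 75422 bp upstream. ZNF217, on chromosome 20, encodes a CtBP-binding repressor that is amplified in breast cancer. It had 210.1 normalised tags over 9 stromal peaks, against 68.8 over 3 astromal peaks, all of them intergenic and 11760 to 96959 bp upstream. Its H3K27ac was 195.0 in the stromal list, the highest of any member there, against 113.1 in the astromal list. ZNF629, on chromosome 16, had 256.3 stromal and 129.9 astromal H3K9ac, with peaks at the TSS, in the 3' UTR and up to 26935 bp upstream. The deposited annotation gives each peak to the nearest TSS, and whether the far peaks act on these genes was not tested.

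**Figure D3:**
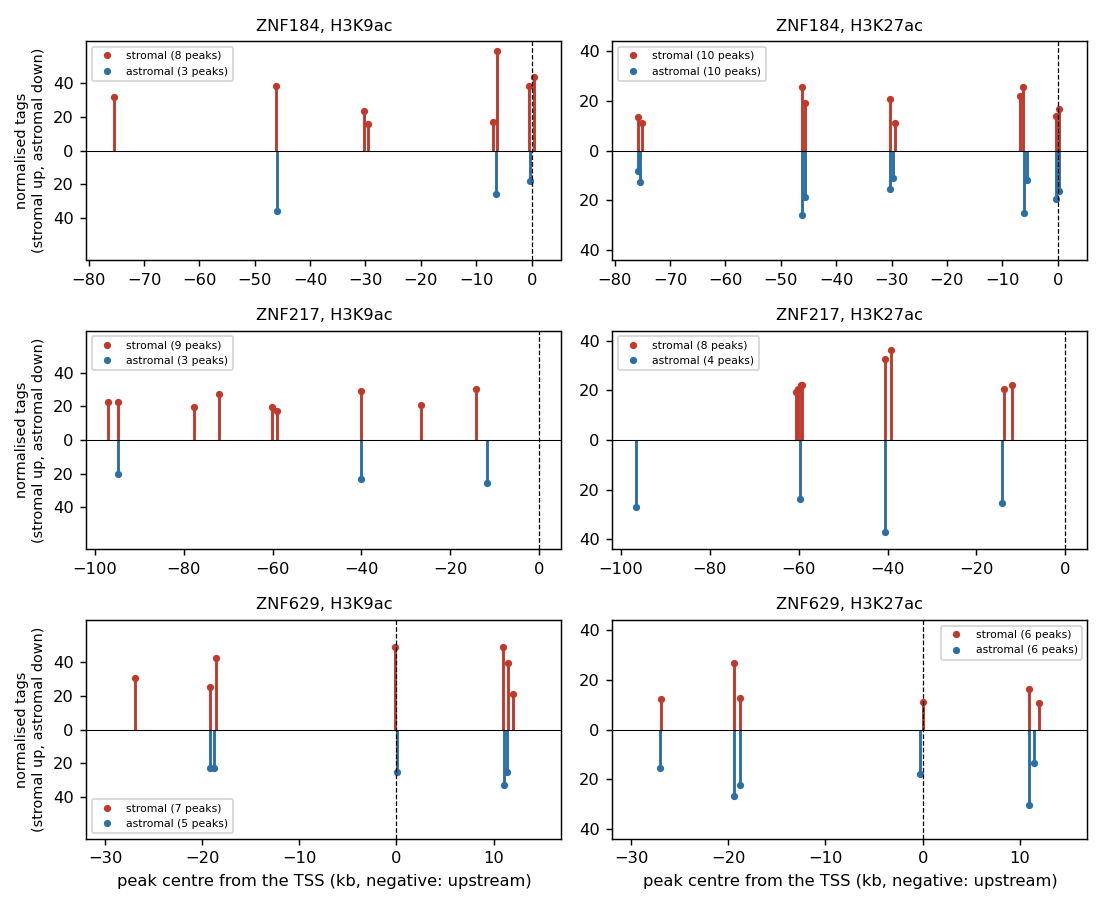
Each stem is a peak, at its distance from the TSS in kb and with its height in normalised tags, stromal up and astromal down, for H3K9ac on the left and H3K27ac on the right. ZNF184 and ZNF217 carry peaks of both marks far upstream, and ZNF217 has none within 1 kb of its TSS.

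Next in order came genes of the chromosome 7 cluster. ZNF786 had 174.4 stromal and 124.9 astromal normalised tags of H3K9ac, and ZNF398, whose product partners the oestrogen receptor, had 157.2 stromal and 91.8 astromal. ZNF425 starts 70 bp from ZNF398 in the opposite direction, and had 75.3 stromal and 28.0 astromal H3K9ac from the shared promoter. ZNF778, ZNF48 and ZNF213 of chromosome 16 followed in the stromal list, with 144.1, 144.0 and 142.7 normalised tags. Within 1 kb of a TSS their stromal levels were 47.6, 108.3 and 17.2, and ZNF213 had no astromal peak there. H3K9ac was higher in the stromal library at 121 of 127 members before centring (95.3%, against 94.2% of all genes in both lists), and at 9 of the 10 genes highest in either list. H3K27ac of the same 10 genes was higher in the stromal library at 3, ZNF184, ZNF217 and ZNF213, where 37.1% of all genes in both H3K27ac lists were higher.

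**Figure D4:**
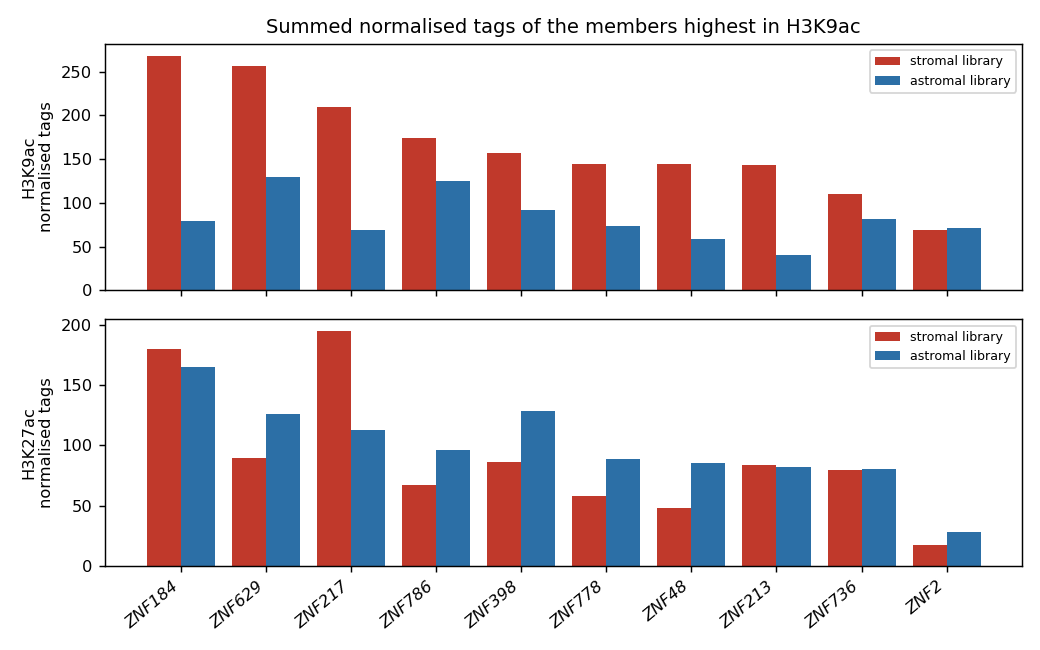
Paired bars give the summed normalised tags of H3K9ac (above) and H3K27ac (below) for the 10 members highest in H3K9ac, stromal left and astromal right, 1 library each. Stromal H3K9ac is the higher bar at all but ZNF2, whose values are 68.7 stromal and 71.4 astromal.

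Among the members whose H3K9ac stood in the stromal list only, the highest was ZNF395. ZNF395, a DNA-binding factor that hypoxia induces, had 104.4 normalised tags over 5 stromal peaks and no astromal peak. The promoter peak, 178 bp upstream of the TSS, held 19.8 of these normalised tags, and the other 4 peaks lay 15144 to 25891 bp upstream. Its H3K27ac went the other way, with 5.24 normalised tags stromal (9 tags) and 24.5 astromal (33 tags). ZNF18 followed with 75.3 normalised tags, ZNF70 with 71.3, ZNF680 with 68.7, ZNF292 with 66.0 and ZNF436 with 64.7. All 5 had H3K27ac in both lists. In the astromal list only were ZNF830, a splicing factor gene, at 28.0 normalised tags (11 tags) and ZNF271, at 20.4 (8 tags). ZNF830 starts 21 bp from CCT6B on the opposite strand, and both ZNF830 and ZNF271 had a stromal H3K9ac peak under another gene's name within 2 kb, so that no member remained in the astromal list only when any peak within 2 kb was counted.

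For members in both lists the level was compared as the log2 ratio of stromal over astromal, centred on the median of all 5706 genes in both H3K9ac lists, which was 0.987. Calls needed a change of at least 2-fold after centring and an exact 95% interval, from the tags, that excluded 0. The centred H3K9ac ratio of the members had a median of 0.06 (interquartile range -0.34 to 0.46), against 0.00 over all genes. Higher in stromal culture were 8 of 127 members, or 6.3%, against 5.96% of all genes, and lower were 2, or 1.57%, against 3.56%. The shares of higher calls were thus close to the background.

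Each of the 8 higher calls had 1 astromal peak and 2 to 5 stromal peaks. ZNF251 had 125.5 normalised tags stromal (95 tags) and 20.4 astromal (8 tags), a centred log2 ratio of 1.63 (0.60 to 2.89). ZNF287 had 121.5 stromal and 20.4 astromal, a ratio of 1.59 (0.55 to 2.84). Within 1 kb of its TSS ZNF287 had 17.2 stromal and no astromal peak. The ratio of ZNF623 was 1.37, with 91.2 stromal and 17.8 astromal. ZNF311 and ZNF467 had the same values, 95.1 stromal and 20.4 astromal, at 1.23. ZNF644, which recruits the histone methyltransferases G9a and GLP, had 137.4 stromal and 30.6 astromal, at 1.18 (0.32 to 2.18). ZNF367 stood at 1.17 and ZNF384, a factor fused to other genes in acute leukaemia, at 1.12, with 109.7 stromal and 25.5 astromal. The lower calls were ZNF674-AS1, with 47.6 stromal and 51.0 astromal (-1.09), and ZNF2, with 68.7 stromal and 71.4 astromal (-1.04), so neither was lower by more than 0.10 before centring. ZNF674-AS1 starts 33 bp from ZNF674, and H3K9ac given to ZNF674 was in the stromal list only.

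The ratio of the sums moved with the number of peaks. When the highest peak of each gene was compared in place of the sum, none of the 10 calls held, ZNF384 turned to -0.08 and ZNF623 stood at 1.10 with an interval that held 0. Members with more stromal than astromal peaks, 66 of 127, had a median centred ratio of 0.45, and the 61 with equal numbers had -0.35. Over all genes these medians were 0.50 and -0.35. No member had fewer stromal peaks. With only peaks within 1 kb of a TSS, ZNF251 (0.97) and ZNF367 (0.83) lost their higher calls. ZNF287 and ZNF311 were then no longer in both lists. ZNF184 (1.31) and ZNF692 (1.14) gained a higher call there.

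**Figure D5:**
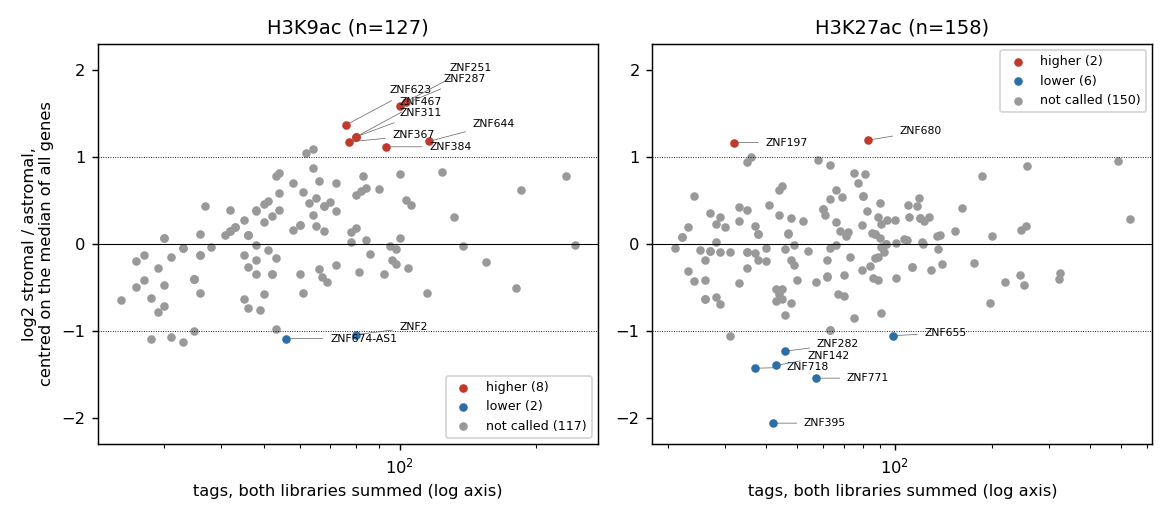
Each point is a member in both lists of a mark, with the tags of both libraries summed on the log x axis and the centred log2 ratio of stromal over astromal on the y axis. Dotted lines mark 2-fold, and the called genes are named: 8 higher and 2 lower in H3K9ac, 2 higher and 6 lower in H3K27ac.

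The centred H3K27ac ratio of the members in both lists had a median of 0.00 (interquartile range -0.35 to 0.30, n = 158 genes), with an uncentred median of -0.17 over all genes. Higher were 2 members, or 1.27%, against 5.43% of all genes, and lower were 6, or 3.8%, against 6.2%. Both higher calls are KRAB zinc-finger genes, but KRAB genes were not counted among the lower calls or the other members. ZNF680 had 34.9 stromal (3 peaks) and 17.1 astromal (1 peak), a centred ratio of 1.20 (0.48 to 1.96), and ZNF197 had 13.38 stromal and 6.69 astromal, at 1.17 with an interval whose lower end was 0.00. The lower calls were ZNF395 (-2.06, -3.31 to -0.97), ZNF771 (-1.54), ZNF718 (-1.43), ZNF142 (-1.40), ZNF282 (-1.23) and ZNF655 (-1.05). ZNF771 had 9.31 stromal and 30.42 astromal normalised tags, and ZNF655 20.4 stromal and 47.5 astromal. At the highest peak none of these 8 calls held and ZNF680 turned to -0.29, while ZNF250 (-1.11) and ZNF33B (-1.10) passed the rule there and not in the sum. These 2 genes were singled out after its values were seen. Of the called members, none was called in both marks. Across the 112 members in all 4 lists the ratios of the marks had a Spearman correlation of -0.04, and both ratios share each gene's peak assignment.

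The 9 listed genes with roles on ribosomes or RNA were all named, 7 with H3K9ac in both lists, where 46.8% of all genes stood. None of them was called in either mark. Over all genes, 5.96% were called higher and 3.56% lower in H3K9ac, and 5.43% and 6.2% in H3K27ac. ZNF598, the ubiquitin ligase of collided ribosomes, had 26.4 stromal and 20.4 astromal normalised tags of H3K9ac. ZNF622, a maturation factor of the large ribosomal subunit, had 89.8 stromal and 30.6 astromal, the highest stromal level of the set, and ZNF207, a BUB3-binding protein of the spindle, 46.2 stromal and 28.0 astromal. ZNF593 had H3K9ac in the stromal list only, at 22.5, and no H3K27ac.

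Of 14 coregulators 12 were named, and 10 had H3K9ac in both lists, against 46.8% of all genes. The median level was 58.8 normalised tags stromal over all 12 and 29.3 astromal over the 10 with an astromal peak. ZNF592, ZNF687 and ZNF532 belong to a complex with ZMYND8. ZNF687 had 91.1 stromal and 58.6 astromal, ZNF592 48.9 stromal and 22.9 astromal, and ZNF532 23.8 in the stromal list only. ZNF746 (PARIS), a substrate of the ligase parkin, had 35.7 in the stromal list only, and no H3K27ac. ZNF451, a SUMO ligase, had 22.5 stromal and 17.8 astromal H3K9ac, with H3K27ac in the stromal list only at 13.4. ZNF644 was the only coregulator called in either mark.

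All 7 promoter-binding factors of the list were named and had H3K27ac in both lists, where 65.4% of all genes stood. ZNF148 had 97.8 stromal and 56.1 astromal H3K9ac, and ZNF76, the close relative of ZNF143, had 88.5 stromal and 43.3 astromal. ZNF143, a general promoter factor, and ZNF281 stood in the stromal list only, with 37.0 and 35.7. Of 11 genes with roles in development and cancer 4 were named, 1 of which, ZNF536, lies on chromosome 19 and is no member. ZNF503 had 27.7 stromal and 22.9 astromal, and its relative ZNF703, an oncogene of luminal breast cancer, 47.5 in the stromal list only with no H3K27ac. ZNF516 was low, at 14.5 in the stromal list only.

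The silencing partners of KRAB proteins, which are not ZNF genes, were looked up in the same lists. Of 18 corepressor genes 16 were named (CBX3 and MORC2 were not), 10 in both H3K9ac lists and 6 in the stromal list only. TRIM28 itself was among the 6, with 63.5 normalised tags over 3 stromal peaks, beside CHD3, DNMT1, MPHOSPH8, PPHLN1 and SUMO2. Stromal culture alone had H3K9ac peaks at 52.2% of all genes named, and both cultures had them at 46.8%. TRIM28 had H3K27ac in both lists, 22.7 stromal and 20.1 astromal. SETDB1 had 60.8 stromal and 25.5 astromal H3K9ac. No corepressor gene was called in H3K9ac, where 5.96% of all genes in both lists were called higher and 3.56% lower.

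Many members lay in runs. Joining members whose peaks were within 500 kb of the next gave 18 runs of at least 3 genes, with 92 members. Members in runs had H3K9ac in both lists at 62.0% and H3K27ac at 83.7%, against 58.0% and 83.9% of the 112 members outside runs with a peak at their TSS. The longest run, 13 genes on chromosome 16 from 30389244 to 31885431 (hg19), had H3K27ac in both lists at all 13 genes, and H3K9ac in both lists at 9 and in the stromal list only at 4. It ran from ZNF48 to ZNF267 and summed to 947.1 normalised tags of H3K9ac in the stromal and 377.0 in the astromal library. The run of 11 genes on chromosome 7, from ZNF786 to ZNF862 between 148787428 and 149535964, had H3K27ac in both lists at 7 genes and no H3K27ac at ZNF746 and ZNF862. On chromosome 5, ZNF354A, ZNF354B and ZNF879 all had H3K9ac in the stromal list only, 72.6 normalised tags in sum, and H3K27ac at ZNF354B alone. On chromosome 3, ZNF619, ZNF620 and ZNF621 had 64.7 stromal and 30.6 astromal in sum, with an H3K27ac peak only at ZNF621, in the astromal list.

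Members with H3K9ac and no H3K27ac included strong ones. ZNF839 had 104.4 stromal and 63.7 astromal normalised tags of H3K9ac over 3 stromal and 2 astromal peaks, with no H3K27ac peak of either list within 2 kb. ZNF3 had 64.7 stromal and 28.0 astromal, and ZNF23 60.8 stromal and 20.4 astromal, each also with no H3K27ac. ZNF141, ZNF252P and ZNF385C complete the 6 members of this kind with H3K9ac in both lists. Where H3K27ac was present in 1 list only, its levels were low. The 5 members with H3K27ac in the stromal list only, ZNF451, ZNF106, ZNF7, ZNF710 and ZNF512, had 5.82 to 13.4 normalised tags of it. The highest of the 14 members with H3K27ac in the astromal list only, ZNF280D and ZNF691, had 14.9 each.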

How the data were processed

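H3K9ac and H3K27ac ChIP-seq peak lists of MIA PaCa-2 spheroids were analysed, 1 list per mark and condition, each from 1 library and not pooled. The 4 input libraries were not analysed here on their own. CASAVA 1.8.2, Bowtie and HOMER on hg19 are named in the submitters' processing notes. Per the file headers, HOMER called H3K27ac peaks of fixed width against input at an FDR of 0.001, with at least 4-fold over input and over the surrounding 10000 bp, each at a Poisson p-value up to 1.00e-04. No source used here states the H3K9ac thresholds. The H3K9ac headers name HOMER's annotation against hg19.

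The signal is the authors' tag count per peak, scaled to 10000000 tags. In the H3K9ac lists this deposited signal rises in even steps, so tags and depth were estimated from the step, each value being whole within 0.1 tag. In the H3K27ac lists the tags came from the same signal and the library total in the deposited header, and the deposited tag count column was not used further. The deposited fold over input and over the local region and their deposited p-values were used as the authors gave them, and only the fold served as a filter. The deposited fraction of tags in focus was used only as a description of peaks, and the deposited findPeaks score was not used further.

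A gene's H3K9ac peaks are those the deposited annotation gives to it. Its H3K27ac peaks have their centre within 2000 bp of any such peak of either list. Levels, centring and the calling rule are given with the results. Shares carry exact Clopper-Pearson intervals and ratios intervals built from the same binomial, both at 95% and for counting error only. TSS positions in hg19 were rebuilt from the deposited distances and placed 198 of the 213 members. The strand came from pairs of peaks and matched the RefSeq promoter table for 5614 of 5626 genes (99.79%). RefSeq tables of GRCh38.p14 gave names, gene types and promoters, with no coordinates mixed between builds. All 213 members were matched by gene ID. Genes in the text are the highest in each list, the highest in 1 list only, every called member, the farthest ratios, runs and the role lists. ZNF141, ZNF252P, ZNF385C, ZNF250 and ZNF33B were added after their values were seen. The members and all lists were chosen with earlier results of these data known. Protein domains were not analysed here. The calling rule was tested on simulated tag sums per gene. That simulation held no peak threshold and no change in peak number, so it does not cover their effect on the calls. Work was done in Python 3.11.15 with pandas 2.3.3, numpy 2.4.6 and scipy 1.17.1.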

Additional observations from a re-analysis of the deposited data

How the results depend on the processing

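Of 56 alternative values of counts and medians, 37 stayed close to the main value (counts within 1.5 times of it), and 19 moved. For single named genes, 294 of 341 alternatives left the gene on the same side of the calling rule, 24 lost and 21 gained a call, and 2 turned the sign of a called gene: ZNF384 in H3K9ac (-0.083) and ZNF680 in H3K27ac (-0.288), each at the highest peak. The sign also turned in 53 of the 294, for genes called under neither setting. With the highest peak of each gene, calls in H3K9ac were 0 higher and 0 lower (0.21% and 0.613% of all genes) and in H3K27ac 0 higher and 2 lower (0.464% and 0.866%). Without centring, the H3K9ac median was 1.05 with 64 members higher and 0 lower, against 44.2% of all genes higher, and the H3K27ac median was -0.17 with 1 higher and 10 lower (0.633% and 6.33% of members, 3.16% and 8.98% of all genes). Peaks of at least 25 normalised tags left 60 members in both H3K9ac lists, 5 called higher and 0 lower (8.33% and 0.0% of members, 7.71% and 2.41% of all genes). Peaks within 1 kb of a TSS gave 7 higher and 1 lower H3K9ac calls (5.98% and 0.855% of 117 members, 4.11% and 2.85% of all genes). Members with H3K9ac in the astromal list only were 0 when any peak within 2 kb counted and 1 among protein-coding genes. Overlap in place of 2 kb gave 13 members with H3K27ac in just the stromal list and 32 in just the astromal one (all genes: 8.05% and 12.4%), and a 6-fold filter gave 12 in the stromal list only (5.63%, all genes 8.49%). For these changes the cause was not tested, except that fewer peaks or genes enter under the stricter filters. No paired analysis was possible because each mark and condition has 1 library. No library can be left out for the same reason. The astromal H3K9ac list, with a median of 9 tags per peak, limits every comparison of that mark.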

Other observations

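Divergent start sites, with a partner gene starting within 1 kb on the other strand, were found at 22 of the 198 placed members (11.1%, 7.1 to 16.3), against 13.2% of other genes. Of these 22, 21 had H3K27ac of either list (95.5%, against 93.9% of all genes with such a partner), and 10 had H3K9ac in both lists (45.5%, against 48.3%). Among the partners were other members, as for ZNF10 and ZNF891, 155 bp apart, ZNF75D and ZNF449, 684 bp apart, and ZNF646 and ZNF668, 920 bp apart. Chromosomes 16 and 7 held 28 members each, with H3K9ac in both lists at 18 and 21 and H3K27ac at 27 and 25 of them. Chromosome 9 held 10 members, with H3K9ac in both lists at 3 and H3K27ac at 6. Over all members these shares were 59.6% for H3K9ac and 83.1% for H3K27ac. The counts are small, and all genes of these chromosomes were not compared. By RefSeq type, 199 members were protein-coding, 8 were long non-coding and 6 were transcribed pseudogenes, and H3K27ac lay near 166, 6 and 5 of them. In percentile among all genes of the list, the median member stood at 58.5 in stromal and 61.0 in astromal H3K9ac, and at 48.8 in stromal and 46.3 in astromal H3K27ac.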
